A study of Homo sapiens with 9 samples.

Results

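The comparison described here is that of E2F3 siRNA with control siRNA in HK1, an established line of squamous cells from a human nasopharyngeal carcinoma. It uses 6 of the 9 libraries of the series: 3 from cells that received a non-targeting siRNA and 3 from cells that received an siRNA to E2F3, in each case 100 nM for 48 h, with RNA from the whole culture. Its members are the 13510 genes, of 58381 with an Ensembl identifier, that reached at least 1 FPKM in at least 3 of these 6 libraries. The remaining 3 libraries, from cells given an siRNA to E2F1 at the same dose and time, are set beside the results only to show where a value differed. All groups share the HK1 background, the culture medium and the transfection. No library without transfection was analysed here. Whether the 3 libraries of a group are separate cultures is not stated, so a p-value here reflects the spread among libraries, which may be technical.

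E2F3 is a transcription factor that binds DNA together with a DP partner and is held in check by the retinoblastoma protein. Once cyclin-dependent kinases phosphorylate that protein, E2F3 is released and switches on genes for DNA replication and the entry into S phase. An siRNA lowers transcripts to which it is fully complementary. It can also lower transcripts that pair only with its seed, a short stretch near its 5′ end, usually within their 3′ untranslated region (3′ UTR).

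Expression is given in FPKM (fragments scaled by transcript length in kilobases and by library size), and differences are E2F3 siRNA minus control on the log2(FPKM + 1) scale, which understates the change of genes at low levels. A gene was called higher or lower where limma gave a two-sided Benjamini-Hochberg adjusted p below 0.05 over all 13510 genes. E2F3 itself had 24.7, 27.2 and 24.4 FPKM with control siRNA and 12.6, 10.5 and 11.02 FPKM with E2F3 siRNA. The groups did not overlap, and E2F3 fell by 1.10 (SE 0.08, n = 3 per group, limma adjusted p = 6.49e-05). Between 10.5 and 12.6 FPKM of the transcript remained.

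The response was broad. Of the 13510 genes, 4965 were called (36.8%), 2797 higher (20.7%) and 2168 lower (16.0%), and the median difference over all genes was 0.04. The RNA came from whole cultures, in which fewer cells with a transcript and less of it per cell cannot be told apart. In 6781 genes (50.2%) the groups did not overlap, with every E2F3 siRNA library above every control library in 29.0% of genes and below in 21.2%. Most calls were small: 282 genes (2.09%) were called with a difference of at least 1, of which 114 rose (0.844%) and 168 fell (1.24%). Calls were less frequent where levels were low, 18.7% of genes with a mean under 2 FPKM against 45.1% of those from 20 to 100 FPKM, and the median standard error was larger there, 0.15 against 0.06. Protein-coding genes had 2497 rises and 2065 falls among 11767, and long noncoding genes had few falls: 90 lincRNAs rose and 21 fell of 408, and 87 antisense genes rose and 20 fell of 486. Genes of any type with a mean under 2 FPKM also had few falls, 88 against 208 rises of 1585. The median standard error was 0.14 for lincRNAs and 0.16 for antisense genes, near that of these low genes. The part of expression level in the noncoding counts was not tested.

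Genes with at least 5 FPKM in a group and no overlap between the groups, clone names and pseudogenes left out, were ranked by their difference, and the 12 with the largest falls included RPN2, ERGIC1, SEC23A, TFAM, SGPP1, ELOVL7, OASL, IL6 and 3 IFIT genes. For the ranked genes, falls and rises alike, the lack of overlap follows from this choice. RPN2, a subunit of the oligosaccharyltransferase that attaches glycans to proteins in the endoplasmic reticulum (ER), dropped from 248, 245 and 248 FPKM in the control libraries to 38.2, 39.7 and 38.7 FPKM after E2F3 siRNA. The highest E2F3 siRNA library stood far below the lowest control, a difference of -2.64 on the log2 scale (SE 0.04, limma adjusted p = 4.45e-08). ERGIC1, a protein of the compartment between ER and Golgi, dropped from 66.7, 65.2 and 64.95 FPKM to 13.3, 13.3 and 12.3 FPKM. SEC23A, which forms the inner coat of vesicles that leave the ER, dropped from 67.04, 63.8 and 63.5 FPKM to 14.1, 12.8 and 12.9 FPKM. The groups were far apart for both genes, with differences of -2.26 and -2.21 (limma adjusted p = 6.71e-07 for each). SEC23B, the paralog of SEC23A, fell by 0.23 (limma adjusted p = 0.0119).

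TFAM, the factor that packages mitochondrial DNA and starts its transcription, dropped from 91.97, 93.4 and 83.3 FPKM to 17.4, 18.4 and 20.5 FPKM, with no overlap between the groups (difference -2.20, limma adjusted p = 1.59e-06). Among lipid genes, SGPP1, a phosphatase of sphingosine 1-phosphate, was at 15.5, 15.9 and 14.6 FPKM in controls and 2.95, 2.71 and 2.80 FPKM after E2F3 siRNA. ELOVL7, which lengthens fatty acids, went from 9.76, 8.15 and 8.83 FPKM to 1.41, 1.18 and 1.86 FPKM. Their differences were -2.10 and -2.003, and the E2F3 siRNA libraries stood below all controls for each. UHRF1, which brings the maintenance methyltransferase to newly copied DNA, dropped from 59.2, 61.6 and 60.9 FPKM to 14.8, 15.7 and 15.9 FPKM, a difference of -1.91 (limma adjusted p = 6.71e-07). The ER calcium pump ATP2A2 dropped from 216, 227 and 216 FPKM to 80.02, 78.9 and 78.2 FPKM (-1.46, limma adjusted p = 6.71e-07), again without overlap.

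Other genes with large falls, named after their values were seen, were AHNAK, a very large scaffold protein (-1.74), ANP32E, a histone chaperone for H2A.Z (-1.82), the growth factor FGF2 (-1.72), DLAT of the pyruvate dehydrogenase complex (-1.62) and the small GTPase RAP1B (-1.59). The splicing factor SRSF9, the lowest of the splicing list, fell by 1.77. The imprinted noncoding RNA H19 was at 667, 634 and 694 FPKM in controls and 198, 229.8 and 222 FPKM after E2F3 siRNA. It fell by 1.62 (limma adjusted p = 3.46e-06), and its lowest control was above its highest E2F3 siRNA library.

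The 12 largest rises by the same ranking included TPM4, GANAB, PRDX4, NES, PRMT6 and 3 ZNF genes. TPM4, a tropomyosin that coats actin filaments, was at 85.9, 90.6 and 86.7 FPKM in controls and 369, 350.1 and 363 FPKM after E2F3 siRNA. It rose by 2.03 (SE 0.04, limma adjusted p = 2.91e-07), and the lowest E2F3 siRNA library was far above the highest control. GANAB, the catalytic subunit of the glucosidase II that trims glycans in the ER, rose from 63.1, 61.8 and 61.1 FPKM to 182, 193 and 181 FPKM (difference 1.57, limma adjusted p = 6.71e-07). PRDX4, a peroxiredoxin of the ER, rose from 37.1, 38.7 and 36.9 FPKM to 103, 104 and 112 FPKM (difference 1.48), with no overlap for either gene. PRMT6, an arginine methyltransferase of histones, was at 7.98, 8.77 and 8.43 FPKM and rose to 23.1, 24.5 and 26.00 FPKM (difference 1.44, limma adjusted p = 1.01e-05). Also among the 12 were ZNF860 (1.66), ZNF629 (1.55), ZNF664 (1.45), the intermediate filament gene NES (1.51), the kinetochore gene ZW10 (1.49), HABP4 (1.42) and the histone gene HIST1H2BD (1.41). Outside the 12, the Golgi matrix gene GOLGA2 rose by 1.17.

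LUZP6 had the largest fitted rise (4.47, SE 1.18, limma adjusted p = 0.0201), but its values were 2.33, 44.3 and 0 FPKM in controls and 88.7, 168 and 108 FPKM after E2F3 siRNA. It lies within MTPN on the same strand, and MTPN rose by 0.34. The LUZP6 call was lost without control replicate 1 (limma adjusted p = 0.0586), without E2F3 siRNA replicate 2 (0.0580), without E2F3 siRNA replicate 3 (0.0524) and under 3 other settings. The ribosomal RNA gene RNA5-8SN2, at 144, 41.1 and 183 FPKM in controls, was listed at 0 in all E2F3 siRNA libraries and also in all E2F1 siRNA libraries.

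**Figure D1:**
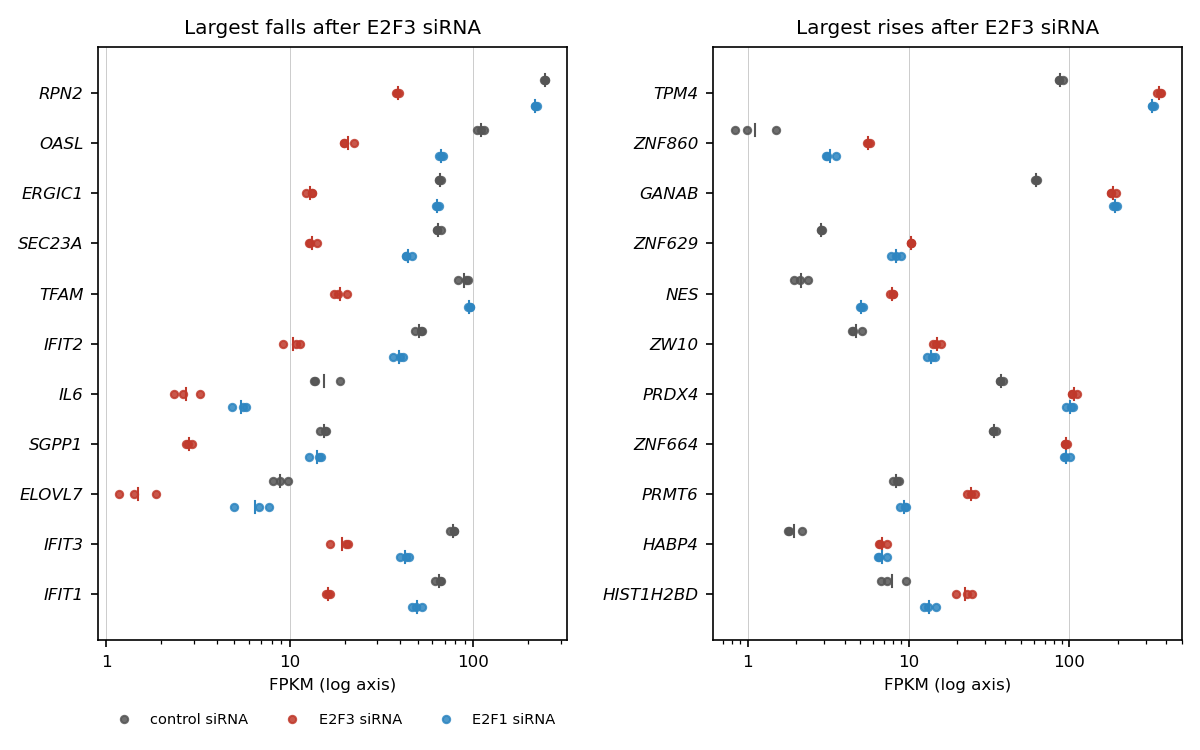
FPKM (log axis) of the genes with the largest falls (left) and rises (right) after E2F3 siRNA; each dot is 1 library and each tick the mean of 3, for control siRNA (grey), E2F3 siRNA (red) and E2F1 siRNA (blue). Only genes without overlap between control and E2F3 siRNA were ranked, so the red dots lie clear of the grey ones by choice. RPN2 stood at a mean of 38.8 FPKM against 247 FPKM. RNA5-8SN2 and LUZP6, which have values of 0, are not drawn.

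Many of the genes that fell most shared short stretches of sequence in their 3′ UTRs. Among 11466 tested genes with an annotated 3′ UTR, all words of 7 bases were counted in the UTRs of the 146 genes that fell by at least 1 and in uncalled genes of the same UTR length. The word with the largest excess was TCCAGAT, present in 34.9% of the 146 genes and in 9.14% of uncalled genes of like length. CCAGATA (30.8% against 6.24%) and CCAGATT (25.3% against 9.42%) followed, each sharing the core CCAGAT. The words were chosen on the values they are set against here, so their shares describe the genes and are no test. The sites of 8 genes among the larger falls are shown because they carry this pattern, from GENCODE release 29 on GRCh38, 5′ to 3′ on the strand of the gene, with TCCAGAT in capitals.
RPN2, chr20:37241420-37241448, plus strand: aaagaaaaaagTCCAGATtgtagttatac
ERGIC1, chr5:172951699-172951727, plus strand: atcttttgagaTCCAGATagacatggttt
SGPP1, chr14:63685927-63685955, minus strand: atcattgcacaTCCAGATactgttttagg
ELOVL7, chr5:60754449-60754477, minus strand: agcccgaagctTCCAGATaacagtcttct
UHRF1, chr19:4962101-4962129, plus strand: ccagtactttgTCCAGATtttagattctc
ANP32E, chr1:150218761-150218789, minus strand: cacttagagccTCCAGATaacttttaaga
SRSF9, chr12:120461933-120461961, minus strand: agaatctacatTCCAGATtgaggatttag
DLAT, chr11:112062645-112062673, plus strand: tattgagtctgTCCAGATaagttatttat

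At least 1 of the 3 words stood in the 3′ UTR of 77 of the 146 genes that fell by at least 1 (52.7%). It stood in 14 of the 82 genes that rose by at least 1 (17.1%), in 19.5% of uncalled genes and in 21.0% of all genes with a UTR. Of the 11 largest falls with a UTR, 8 held a word: RPN2, ERGIC1, SEC23A, TFAM, IFIT2, SGPP1, ELOVL7 and IFIT1, and OASL, IL6 and IFIT3 did not. Of the 11 largest rises with a UTR, 3 held a word: GANAB, ZNF629 and ZNF664. The difference was graded by the number of copies of TCCAGAT: the median was 0.04 over 10187 genes without a copy, -0.06 over 1121 genes with 1 copy and -0.19 over 158 genes with 2 or more. The share called lower was 16.1%, 28.6% and 38.0% in the same order. After E2F1 siRNA the medians of these 3 classes were 0.03, 0.02 and 0.02. UTR length moved with the number of copies, with medians of 877, 2686 and 4248 bases. In equal-sized classes of short, middle and long UTRs, the median difference with TCCAGAT was -0.28, -0.12 and -0.04. Without it the medians were 0.006, 0.04 and 0.09. The part of UTR length in the gradient was not tested.

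Genes without any of the words were also called in both directions. Of 9058 such genes, 2022 were called higher and 1388 lower (15.3%), against 409 higher and 634 lower (26.3%) of the 2408 genes with a word. Genes without these 3 words may still hold the core CCAGAT. For example, GCCAGAT stood in 17.1% of the 146 genes that fell by at least 1 and in 6.91% of uncalled genes of like length. E2F3 has a 3′ UTR with none of the 3 words. The sequence of the siRNA is not given in the sources used here, and whether the words match its seed was not tested.

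**Figure D2:**
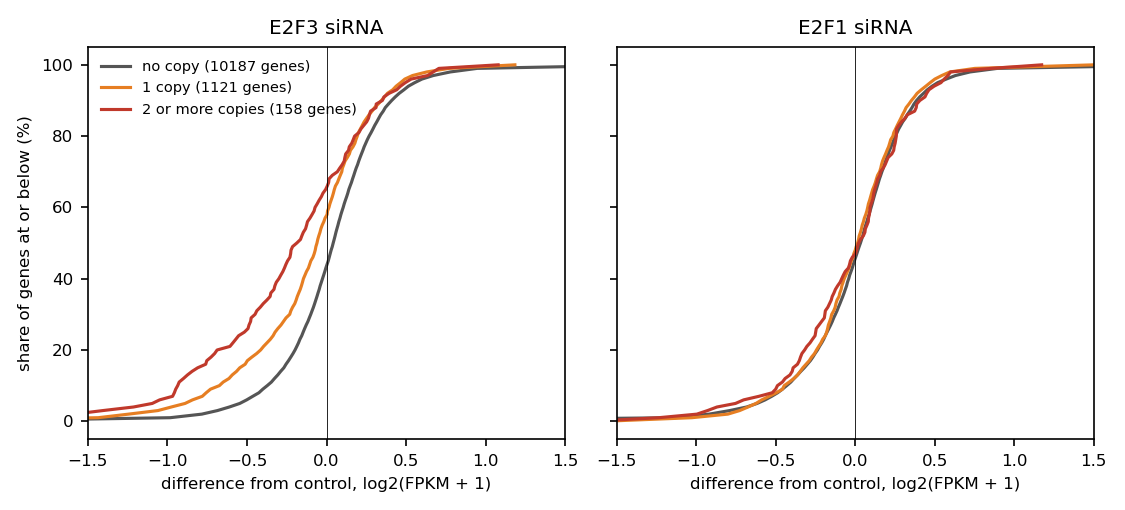
Share of genes (y axis, %) at or below each difference from control on the log2(FPKM + 1) scale (x axis), for genes with no copy, 1 copy, and 2 or more copies of TCCAGAT in the 3′ UTR; left E2F3 siRNA, right E2F1 siRNA. The curves separate on the lower side after E2F3 siRNA, with medians of 0.04, -0.06 and -0.19, and lie together after E2F1 siRNA.

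Groups of genes beyond the E2F family were described from lists of pathway members; for each, the number called is read against 20.7% higher and 16.0% lower over all genes tested. The plot of calls by gene list shows keratins, the antiviral effectors, Notch genes, amino acid transporters and tRNA synthetases with the larger shares of falls, and the replication-dependent histones with rises and no fall. No set test was made, and nothing is called particular to a list from its count.

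**Figure D3:**
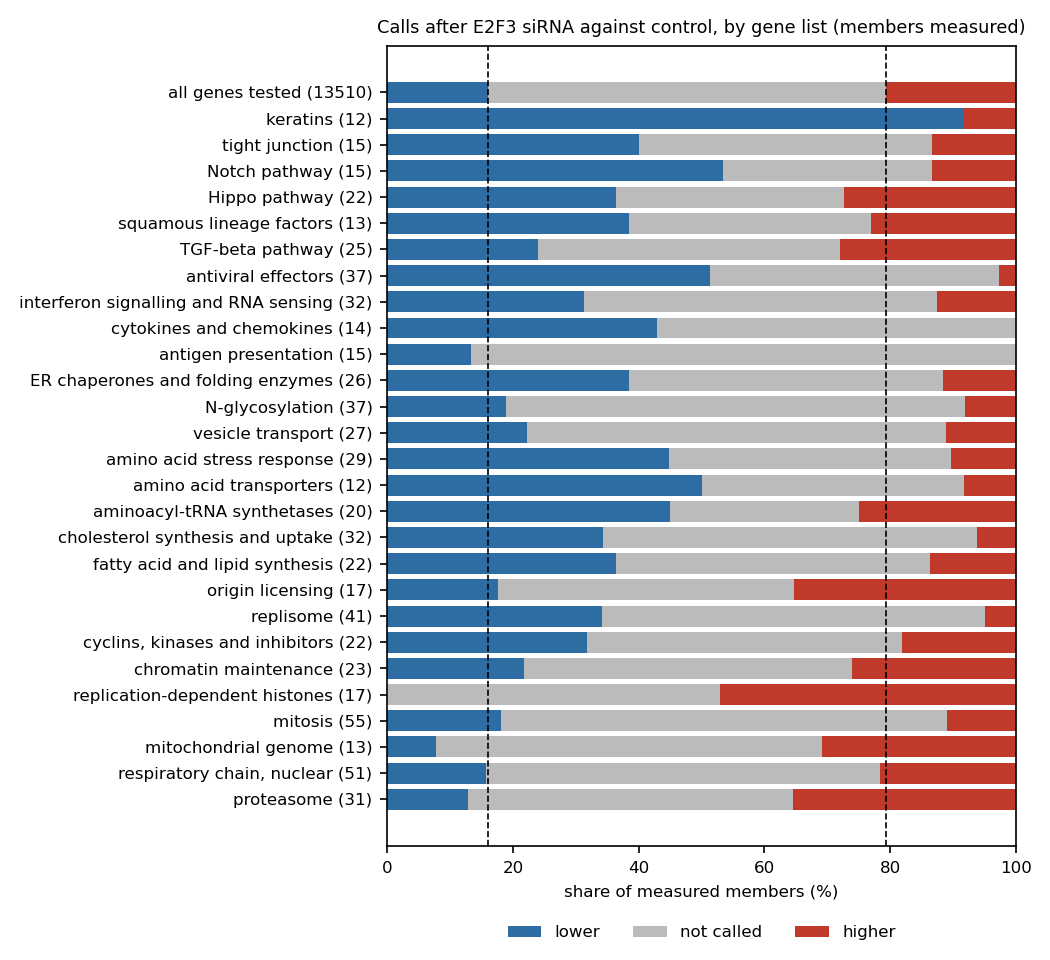
Share of measured members (x axis, %) called lower (blue), not called (grey) and called higher (red) after E2F3 siRNA, by gene list with the number of members measured; dashed lines mark the shares over all 13510 genes, 16.0% lower and 20.7% higher. Of the keratins, 11 of 12 were lower.

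In the ER, the fall of RPN2 was not shared by most of its complex. The oligosaccharyltransferase transfers a preformed glycan to asparagines of new proteins, and all 10 of its listed subunits were measured. RPN2 and MAGT1 were called lower and none higher under the deposited scaling, while 4 were lower with median-of-ratios scaling or after a correction for GC content and length. MAGT1, an oxidoreductase subunit of the complex with the catalytic subunit STT3B, was at 68.4, 64.1 and 61.9 FPKM in controls and 32.4, 32.4 and 32.8 FPKM after E2F3 siRNA (-0.97, limma adjusted p = 1.45e-05). RPN1 was at 179, 173 and 171 FPKM and 165, 168 and 165 FPKM (-0.07, not called), and DDOST at 133, 140.2 and 132 FPKM and 136, 143 and 140.1 FPKM (0.05, not called, overlapping groups). Both subunits that fell carry 1 of the 7-base words in their 3′ UTR, and under the deposited scaling none of the 8 subunits without a word was called. The words were picked on the genes with falls of at least 1, RPN2 among them.

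Over all 37 measured genes of N-glycosylation, 3 were higher, 7 lower and 27 not called (median -0.06). Falls outside the complex included B4GALT1, a galactosyltransferase of the Golgi (26.6, 26.4 and 26.5 FPKM to 14.8, 14.7 and 14.02 FPKM, -0.83), MOGS, the glucosidase that removes the outermost glucose (-0.69), and DPAGT1, which makes the first sugar-lipid intermediate (-0.48). MGAT5, which adds a branch to the glycan, rose by 0.60, and the fucosyltransferase FUT8 rose by 0.38. In vesicle transport, 3 of 27 genes were higher and 6 lower, and beside SEC23A the cargo receptor LMAN1 (-0.68) and the GTPase SAR1A (-0.52) fell. Without the genes that carry a word, 3 of 23 vesicle genes were higher and 3 lower.

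Of 26 measured ER chaperones and folding enzymes, 10 were lower, 3 higher and 13 not called (median -0.11), and 7 of 18 without a word were lower. The disulfide isomerase PDIA4 dropped from 133, 135 and 138 FPKM to 55.6, 54.6 and 55.3 FPKM (-1.28, limma adjusted p = 1.04e-06). HYOU1 (-0.85), the lectin chaperone CANX (-0.64), its soluble relative CALR (-0.48), HSPA5, the main Hsp70 of the ER (-0.29), and DERL2, which helps move misfolded proteins out of the ER (-0.64), also fell. The rises included ERO1A, the oxidase that recharges disulfide isomerases, from 38.5, 39.3 and 40.6 FPKM to 77.2, 64.5 and 73.6 FPKM (0.84), and EDEM1, which marks misfolded glycoproteins for degradation (0.37). Of 9 genes for sensors and effectors of unfolded proteins 2 rose, 2 fell and 5 were not called (median 0.003), and 1 rose without any library in turn except control replicate 3. The falls were those of ATF6B (-0.90) and the transcription factor XBP1 (-0.43).

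**Figure D4:**
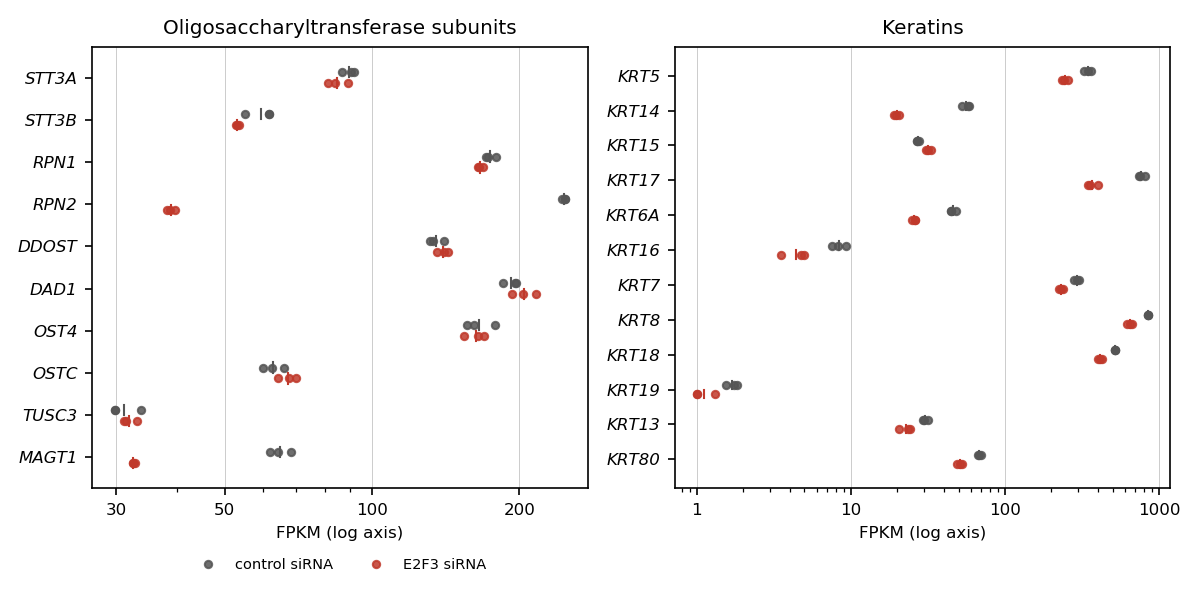
FPKM (log axis) of the 10 oligosaccharyltransferase subunits (left) and the 12 measured keratins (right) in control siRNA (grey) and E2F3 siRNA (red) libraries; each dot is 1 library and each tick the mean of 3. RPN2 stands apart from the other subunits, and in the keratins every red group but that of KRT15 is below the grey one.

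Many of the antiviral genes that interferon induces were called lower. Cells of epithelial origin keep a low tonic level of these genes, which encode proteins that bind viral RNA, block translation or modify viral proteins. Of 37 measured effectors (38 listed), 19 fell, 1 rose and 17 were not called, with a median of -0.21. In the IFIT and OAS families 7 of 8 fell (median -1.48), and among the 5 of these without a 7-base word 4 fell. OASL dropped from 114, 105 and 111 FPKM to 19.8, 19.8 and 22.5 FPKM and IFIT1, which binds RNA lacking the cap methylation of the host, from 67.2, 66.05 and 61.97 FPKM to 15.8, 16.6 and 16.2 FPKM. OAS3, which makes the activator of RNase L, dropped from 41.3, 39.1 and 40.3 FPKM to 21.2, 18.5 and 18.1 FPKM (-1.02, limma adjusted p = 4.35e-05). OAS1 was at 19.5, 18.7 and 17.4 FPKM and 15.9, 17.4 and 18.3 FPKM, with overlapping groups (-0.10, not called).

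Outside these families, HERC5, the ligase that attaches ISG15, dropped from 20.5, 19.8 and 17.4 FPKM to 4.53, 4.09 and 4.54 FPKM (-1.91, limma adjusted p = 6.91e-06). ISG15, its ubiquitin-like substrate, dropped from 342, 289 and 328 FPKM to 159.9, 171 and 171 FPKM (-0.93). RSAD2, which makes a chain-terminating nucleotide (-1.64), the exonuclease ISG20 (-1.20), IFI44 (-0.97) and ZC3HAV1, which binds CpG-rich viral RNA (-1.61), fell as well. GBP2, a guanylate-binding protein, was the effector that rose, from 9.26, 9.47 and 8.12 FPKM to 14.4, 15.6 and 15.6 FPKM (0.71), and 2 effectors were higher without E2F3 siRNA replicate 2. IFIT1, IFIT2 and IFIT3 overlap LIPA on the opposite strand, and LIPA was at a mean of 36.01 FPKM in controls and 40.3 FPKM after E2F3 siRNA. Falls from control were also seen after E2F1 siRNA in OASL (-0.71), IFIT1 (-0.39), HERC5 (-0.63) and ISG15 (-0.41), but not in OAS3 (0.003). In a direct contrast of the siRNAs each of these genes was lower after E2F3 siRNA. Over the 31 effectors with a 3′ UTR and no 7-base word the median was -0.25 after E2F1 siRNA and -0.10 after E2F3 siRNA. Over the 5 of these in the IFIT and OAS families it was -0.35 and -1.02.

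Sensors and signal carriers of the pathway moved less evenly: 10 of 32 fell and 4 rose (median -0.06), and the count of rises was 1 without E2F3 siRNA replicate 1 and 2 without any other library in turn. DDX58, the cytosolic sensor RIG-I, dropped from 36.5, 36.5 and 35.1 FPKM to 13.8, 11.1 and 12.5 FPKM (-1.47), and DDX60 (-1.34) and the RIG-I relative DHX58 (-0.75) fell too. The interferon gamma receptor chain IFNGR1 (-0.96) and the transcription factors IRF1 (-0.92), IRF2 (-0.53) and STAT2 (-0.53) fell. In antigen presentation 2 of 15 genes were lower, 1 without control replicate 2, control replicate 3 or E2F3 siRNA replicate 3. HLA-F, a nonclassical class I gene, fell by 0.61, and B2M, the light chain of class I, was at 2098, 1959 and 2143 FPKM and 1879, 2086 and 1995 FPKM with overlapping groups (-0.06, not called). Of 14 measured cytokines and chemokines (30 listed), 6 fell and none rose. IL11 dropped from 4.99, 4.85 and 5.01 FPKM to 1.27, 1.58 and 1.58 FPKM (-1.27, limma adjusted p = 8.48e-05) and the chemokine CXCL16 fell by 0.55. IL6 went from 13.6, 13.7 and 18.8 FPKM to 3.23, 2.34 and 2.63 FPKM (-2.12). After E2F1 siRNA IL6 stood at -1.34 and IL11 at -0.71 against control, and both were lower after E2F3 siRNA in the direct contrast. Over the 12 cytokines and chemokines with a 3′ UTR and no 7-base word the median was -0.49 after E2F1 siRNA and -0.15 after E2F3 siRNA.

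Genes of amino acid supply were called lower more often than higher. The transcription factor ATF4, which cells translate when amino acids run short, controls many of them, and it went from 217, 202 and 208 FPKM to 158, 172 and 168 FPKM (-0.33, limma adjusted p = 0.00123). Of 29 measured genes of this response 13 fell and 3 rose (median -0.20), 9 of the 22 without a 7-base word fell, and 8 fell without control replicate 1 or without control replicate 3. SHMT2, the mitochondrial enzyme that splits serine into glycine and a carbon unit carried by folate, dropped from 239, 232 and 237 FPKM to 136, 133 and 141 FPKM (-0.79). The asparagine synthetase ASNS (-0.42) and the factor CEBPB (-0.56) fell. Of 12 amino acid transporters 6 were lower and 1 higher, and the rise was lost without any library except E2F3 siRNA replicate 2. The glycine transporter SLC6A9 dropped from 18.9, 19.6 and 17.99 FPKM to 9.73, 10.4 and 10.1 FPKM (-0.84), the glutamine transporter SLC38A1 fell by 0.47, and SLC7A5 and SLC3A2, the chains of the main leucine transporter, fell by 0.28 each.

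The aminoacyl-tRNA synthetases, which load amino acids on their tRNAs, split into both directions: 9 of 20 fell, 5 rose and 6 were not called. QARS, for glutamine, dropped from 196, 199 and 187 FPKM to 118, 135 and 126 FPKM (-0.62), and MARS (-0.71), VARS (-0.63) and GARS (-0.55) fell. HARS, for histidine, rose from 57.9, 55.3 and 59.1 FPKM to 83.95, 82.5 and 81.8 FPKM (0.52), and KARS (0.42) and LARS (0.31) rose. The groups did not overlap for any of these 7 genes. MARS overlaps DDIT3 and HARS overlaps HARS2, each on the opposite strand, and the strand setting of the counting is not given in the sources used here.

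Lipid synthesis genes were also lower more often than higher. Of 32 measured genes of cholesterol synthesis and uptake 11 fell and 2 rose (median -0.15), with 8 falls among the 27 with a UTR and no 7-base word. Of 22 genes of fatty acid and lipid synthesis 8 fell and 3 rose (median -0.14). SREBF1, the factor that drives fatty acid synthesis genes, dropped from 82.7, 76.9 and 86.4 FPKM to 40.5, 55.6 and 44.02 FPKM (-0.81, limma adjusted p = 0.00101). INSIG1 (-0.60) and INSIG2 (-0.72), which hold the SREBP factors in the ER, fell. Fatty acid synthase FASN dropped from 92.4, 92.5 and 100.7 FPKM to 50.1, 59.05 and 58.97 FPKM (-0.76), and ACSS2, which makes acetyl-CoA from acetate (-0.97), and the desaturases FADS3 (-0.95) and SCD (-0.67) fell. DGAT2, which completes triglycerides, rose from 2.74, 2.50 and 2.06 FPKM to 4.18, 5.59 and 5.45 FPKM (0.82).

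Genes of the G1 to S transition moved apart from one another. Cyclins D and E drive the kinases that inactivate the retinoblastoma protein, and 5 of 9 cyclin genes fell and 1 rose, or 2 without E2F3 siRNA replicate 3 (median -0.32). CCND1 dropped from 75.3, 78.02 and 79.8 FPKM to 38.1, 40.00 and 37.2 FPKM (-0.998, limma adjusted p = 1.02e-05). CCNE1 dropped from 13.8, 14.1 and 13.4 FPKM to 7.39, 8.89 and 8.52 FPKM (-0.67), and CCND3 (-0.48) and CCNE2 (-0.85) fell. The kinase gene CDK6, a partner of cyclin D, rose from 16.9, 16.9 and 16.1 FPKM to 29.3, 26.7 and 25.8 FPKM (0.68). Its inhibitor CDKN2B rose by 0.51, and the inhibitor CDKN1A fell by 0.72. Of 12 genes of the retinoblastoma family, the DP partners and the MuvB complex 3 rose, 1 fell, or 2 after the correction for GC content and length, and 8 were not called. RBL1, a relative of the retinoblastoma protein, rose from 12.6, 15.9 and 13.4 FPKM to 25.8, 25.01 and 24.1 FPKM (0.80). MYBL2, which joins MuvB on genes of late S phase and mitosis, fell by 0.60.

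Origin licensing and the replisome did not move alike. Licensing loads the MCM helicase on DNA before S phase: of 17 genes 6 rose, 3 fell and 8 were not called (median 0.01). MCM10 (-0.59), the loader CDC6 (-0.41) and MCM3 (-0.34) fell, and GMNN, the inhibitor of licensing, rose from 85.98, 95.2 and 88.3 FPKM to 135, 114 and 144 FPKM (0.53), with ORC1 (0.28) and ORC3 (0.29). Of 41 replisome genes 14 fell and 2 rose (median -0.07), and 10 of 33 without a 7-base word fell; of the rises, none was called without control replicate 1 and 1 without any other library in turn. CDC45, which completes the active helicase, dropped from 39.8, 35.8 and 38.1 FPKM to 19.5, 18.8 and 19.6 FPKM (-0.94). TIMELESS, which protects the fork (-0.68), the primase subunit PRIM2 (-0.82), the delta polymerase subunits POLD1 (-0.76) and POLD2 (-0.60) and the clamp PCNA (-0.39) fell. TK1, the thymidine kinase, fell by 0.66.

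Chromatin maintenance genes went both ways, 6 of 23 higher and 5 lower. Beside UHRF1, the maintenance methyltransferase DNMT1 dropped from 88.5, 86.8 and 97.3 FPKM to 59.2, 59.2 and 54.4 FPKM (-0.65), and the remodeler HELLS (-0.77), the histone chaperone ASF1A (-0.81) and the Polycomb methyltransferase EZH2 (-0.28) fell. EZH1, the second Polycomb methyltransferase, rose from 9.92, 8.70 and 11.04 FPKM to 20.6, 19.9 and 16.6 FPKM (0.88), and the new-methylation enzyme DNMT3B (0.47) and the demethylase TET3 (0.87) rose. Of 17 measured replication-dependent histone genes (42 listed) 8 rose and none fell (median 0.44). With a minimum of 5 FPKM, which tests only members that reach it, 5 rose. The correction for GC content and length covers only members with an annotated 3′ UTR, and 4 of these rose after it. Before it, 4 of the 10 such members without a 7-base word rose, and 1 of the 2 with one. Reads of these histone genes are hard to place because the copies are nearly identical, and their transcripts lack the poly(A) tail. Of 55 mitosis genes 6 were higher and 10 lower (median 0.02).

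**Figure D5:**
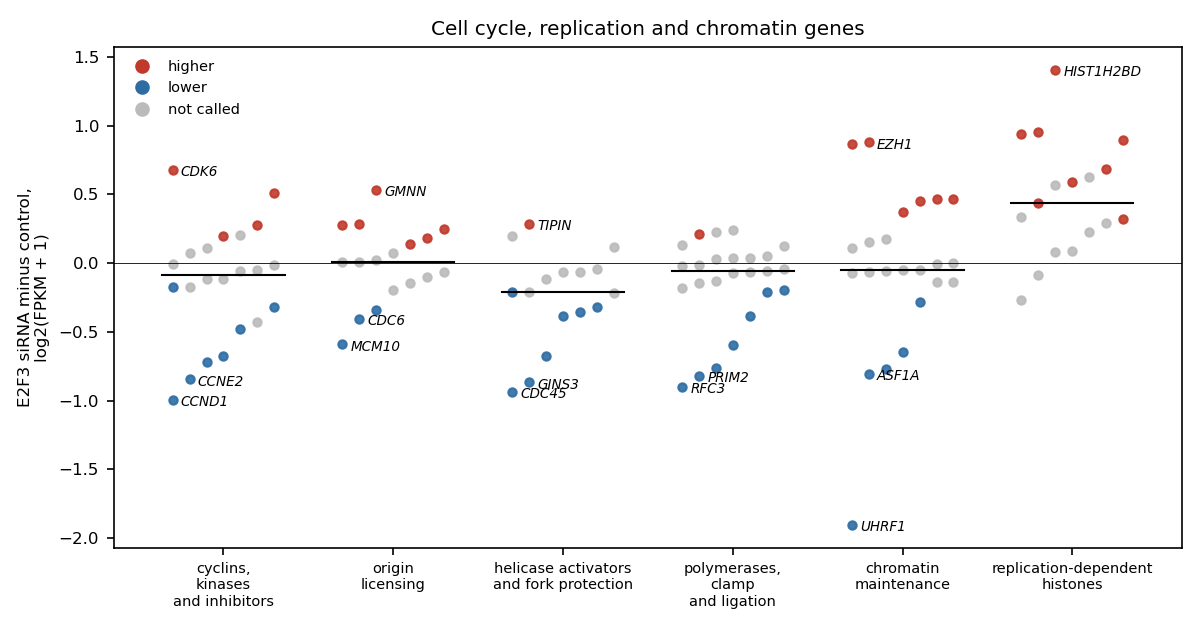
Difference of E2F3 siRNA from control on the log2(FPKM + 1) scale (y axis) for each measured gene of 6 groups of cell cycle, replication and chromatin genes; dots are genes, red called higher, blue called lower and grey not called, and bars are medians. Cyclins and helicase genes have more blue dots, licensing genes lie around 0, and UHRF1 is the lowest point.

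E2F motifs were looked for in the promoters of the called genes. The motifs TTTGGCGC, TTTCCCGC, TTTCGCGC and TTTGCCGC were searched on both strands of the RefSeq promoter windows on GRCh38.p14 (250 bases before to 50 after the start), which were found for 9556 of the 11738 protein-coding genes tested (81.4%) when each symbol is counted once. At least 1 motif stood in 5.33% of promoters of genes that fell, 4.86% of those of genes that rose, 5.80% of uncalled genes and 5.51% of all tested, against 3.33% of all 27305 promoters in the table. Among genes called with a difference of at least 1, it stood in 10 of 109 promoters of those that fell (9.17%) and 3 of 77 of those that rose (3.90%). Of the former, 5.50% held TTTCCCGC against 2.67% of all tested, and 1.83% held TTTCGCGC against 1.06%. TTTGGCGC (0.917% against 1.14%) and TTTGCCGC (0.917% against 0.848%) were near the shares over all tested. Each of these shares rests on few promoters. The share was 46.7% for licensing genes, 38.2% for the replisome, and for chromatin maintenance it was 6 of 20 promoters, and these lists held genes that rose, fell and were not called. The matches of 4 genes that fell and 2 that rose are shown to let them be compared, 5′ to 3′ on the strand of the gene, with the motif or its reverse complement in capitals.
UHRF1 (fell), chr19:4909476-4909505, plus strand: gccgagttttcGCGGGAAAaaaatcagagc
RFC3 (fell), chr13:33818083-33818112, plus strand: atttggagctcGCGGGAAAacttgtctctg
DNMT1 (fell), chr19:10194937-10194966, minus strand: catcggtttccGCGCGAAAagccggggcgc
CDC6 (fell), chr17:40287875-40287904, plus strand: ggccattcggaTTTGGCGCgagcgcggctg
ORC3 (rose), chr6:87590112-87590141, plus strand: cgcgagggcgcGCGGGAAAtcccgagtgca
EZH1 (rose), chr17:42745137-42745166, minus strand: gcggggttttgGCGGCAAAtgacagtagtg
UHRF1, RFC3 and ORC3 hold the same 8 letters in this window, and RFC3, the clamp loader subunit, fell by 0.90 whereas ORC3 rose by 0.29. A match describes letters in a window and does not show that a factor is bound there.

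The keratins, filament proteins that mark the layers of an epithelium, were lower in nearly all cases. Of 12 measured (17 listed) 11 fell and 1 rose (median -0.41), with 10 or 11 falls when libraries were left out singly, and none carries a 7-base word in its UTR. KRT14 of the basal layer dropped from 58.8, 52.9 and 57.3 FPKM to 19.8, 19.1 and 20.5 FPKM (-1.46, limma adjusted p = 3.8e-06), and its partner KRT5 from 347, 359.8 and 328 FPKM to 235, 243 and 256 FPKM (-0.49). KRT17 (-1.06), KRT6A (-0.81) and KRT16 (-0.80), keratins of activated squamous cells, fell, and so did the simple keratins KRT8 (-0.39) and KRT18 (-0.33). KRT15 was the exception, from 26.8, 27.1 and 27.8 FPKM to 30.8, 32.97 and 31.6 FPKM (0.22, limma adjusted p = 0.0129). After E2F1 siRNA the median over the same 12 keratins was -0.42, with KRT17 at -0.94, KRT14 at -0.66 and KRT16 at 0.58. In a direct contrast of the siRNAs KRT17, KRT8 and KRT18 were not called, whereas KRT14, KRT5, KRT6A, KRT16 and KRT15 were. KRT6A, KRT14, KRT16 and KRT17 have near-identical copies, and KRT8 and KRT18 overlap on opposite strands, so reads could be split among them.

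Junction and adhesion genes showed falls and rises side by side. Of 15 tight junction genes 6 fell and 2 rose, and no rise was called without control replicate 1, control replicate 3, E2F3 siRNA replicate 1 or E2F3 siRNA replicate 3. CLDN4, a claudin that seals the space between cells, dropped from 25.1, 23.04 and 22.6 FPKM to 7.60, 8.78 and 8.67 FPKM (-1.39, limma adjusted p = 1.82e-05), and CLDN1 (-0.76), CGN (-0.61) and TJP3 (-0.59) fell. In the hemidesmosome, which anchors basal cells, ITGB4 dropped from 126, 117 and 129 FPKM to 57.6, 67.8 and 61.8 FPKM (-0.98), the tetraspanin CD151 (-0.58) and the laminin chain LAMB3 (-0.46) fell, and COL17A1 rose from 67.02, 57.05 and 65.1 FPKM to 90.2, 84.6 and 89.3 FPKM (0.48). Among other integrins ITGA3 fell by 0.94, while ITGB1 (0.41) and ITGAV (0.31) rose.

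Of 13 measured lineage factors of squamous epithelium 5 fell and 3 rose. TP63, the master factor of basal squamous cells, dropped from 48.1, 44.5 and 47.5 FPKM to 31.4, 28.2 and 25.6 FPKM (-0.70, limma adjusted p = 0.000376). KLF4, which promotes differentiation, fell by 1.16 and KLF5 by 0.45. ELF3, an ETS factor of epithelia, rose from 39.7, 37.7 and 39.1 FPKM to 58.99, 58.3 and 58.04 FPKM (0.58), and SOX2 rose from 1.65, 2.15 and 2.03 FPKM to 3.11, 3.73 and 3.43 FPKM (0.59).

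In the Notch pathway, in which ligands on a cell trigger the cleavage of receptors on its neighbour, 8 of 15 measured genes fell and 2 rose (median -0.26), with 6 falls among the 12 without a word; of the rises none was called without control replicate 3 and 1 without any other library in turn. LFNG, a glycosyltransferase that tunes the receptor, dropped from 14.5, 14.6 and 15.7 FPKM to 8.11, 7.68 and 7.18 FPKM (-0.88). The ligand DLL1 (-0.41), the receptor NOTCH1 (-0.37) and the protease ADAM10 (-0.44) fell. Of 22 Hippo pathway genes 8 fell and 6 rose. YAP1 rose from 88.2, 84.8 and 82.6 FPKM to 126, 118 and 115 FPKM (0.49, limma adjusted p = 0.000256), while WWTR1, its paralog TAZ, dropped from 44.6, 41.5 and 43.4 FPKM to 23.9, 25.4 and 28.3 FPKM (-0.72, limma adjusted p = 0.000213). VGLL4, which competes with YAP1 for TEAD factors, rose by 0.81, and the targets ANKRD1 (-0.73), AXL (-0.68) and AMOTL2 (-0.56) fell while AMOTL1 rose (0.53).

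Of 25 TGF-beta pathway genes 7 rose and 6 fell, and 4 rose without control replicate 1, control replicate 2, E2F3 siRNA replicate 1 or E2F3 siRNA replicate 2. SMAD5, which carries BMP signals, dropped from 33.2, 31.5 and 31.00 FPKM to 15.8, 12.3 and 14.9 FPKM (-1.11, limma adjusted p = 9.53e-05). SMAD3 (-0.61) and the inhibitory SMAD6 (-0.69) and SMAD7 (-0.57) fell, and the corepressor SKI (0.67) and the BMP target ID2 (0.64) rose. Of 27 Wnt pathway genes 6 rose and 6 fell; 2 rose without E2F3 siRNA replicate 1 and 3 without control replicate 3, and 3 fell without control replicate 2 or E2F3 siRNA replicate 3. Of 17 EGFR family genes 1 rose and 2 fell, or 4 fell with median-of-ratios scaling and 5 after the correction for GC content and length. The Wnt antagonist DKK1 dropped from 85.5, 84.6 and 88.8 FPKM to 36.96, 35.9 and 44.7 FPKM (-1.13), and the receptor ERBB2 from 20.4, 20.1 and 20.9 FPKM to 10.3, 13.6 and 11.6 FPKM (-0.75).

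Several genes of glucose and energy metabolism had larger changes than their lists. The lactate exporter SLC16A3 dropped from 141, 138 and 142 FPKM to 53.6, 65.6 and 59.7 FPKM (-1.23, limma adjusted p = 2.07e-05), the glucose transporter SLC2A1 fell by 0.71, and EGLN3, an oxygen-sensing hydroxylase, fell by 1.04. On the same strand SLC16A3 overlaps AC132872.3 (mean 2.35 FPKM in controls, 10.1 FPKM after E2F3 siRNA) and AC132872.4 (4.17 and 23.8 FPKM). Whether reads were assigned differently among these entries was not tested. Of the 13 protein-coding transcripts of mitochondrial DNA, which TFAM helps to transcribe, 4 were higher, 1 lower and 8 not called (median 0.08), and leaving out libraries singly gave 1 to 3 higher, the lowest without control replicate 1, and none lower. All genes with a mitochondrial DNA symbol, not only these 13, made up 16.1 to 17.0% of summed FPKM in controls and 16.9 to 17.5% after E2F3 siRNA. The nuclear factors TFB2M (-0.08) and POLRMT (-0.17), which work with TFAM, were not called.

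Among tropomyosins, TPM2 rose from 8.29, 8.52 and 8.14 FPKM to 22.6, 22.7 and 20.1 FPKM (1.29, limma adjusted p = 1.51e-05) and TPM1 by 0.30, beside the larger rise of TPM4. The actin list as a whole had 8 genes higher and 2 lower of 30; with median-of-ratios scaling it had 6 higher and 5 lower. Further genes came from lists with calls in both directions. Of 25 apoptosis genes 7 rose and 3 fell, or 5 after the correction for GC content and length, and the proapoptotic gene BMF rose (0.72). Of 21 genes of small RNA silencing 4 rose and 6 fell, and 1 or 2 fell without control replicate 1, control replicate 2, E2F3 siRNA replicate 2 or E2F3 siRNA replicate 3; DROSHA, the nuclease of microRNA maturation, rose (0.77). Of 47 genes of ribosome biogenesis 13 rose and 9 fell, and NOLC1, a nucleolar chaperone, rose (0.98). Of 12 genes of the MYC network 4 rose, or 2 without control replicate 2 or E2F3 siRNA replicate 2, and 2 fell, with MXD1, a partner of MAX that opposes MYC, among the falls (-0.95).

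Genes with a ZNF number code for zinc finger proteins, many of which repress transcription, and were picked out as a class after their values were seen. Of 154 tested genes with a ZNF number on chromosome 19, where most stand in clusters, 70 were higher, 2 lower and 82 not called (median 0.32), and of 188 elsewhere 73 were higher, 11 lower and 104 not called (median 0.22). Most are expressed at low levels: among those under 5 FPKM 39.6% of 159 were higher, against 13.9% of 2176 other protein-coding genes under 5 FPKM. After E2F1 siRNA the medians were 0.22 and 0.23. Clustered ZNF genes resemble each other in sequence, which limits how well reads are assigned to them.

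Some of these changes differed between the siRNAs and others did not pass that test. The comparisons of each siRNA with control share the control libraries, so the values are set side by side and only the direct contrast, in which 6268 genes were called (46.4%), tests a difference. RPN2 was at 222, 217 and 217 FPKM in the E2F1 siRNA libraries (difference from control -0.17), and E2F3 siRNA was below E2F1 siRNA by -2.46 (limma adjusted p = 5.45e-11). ERGIC1 (-0.04 after E2F1 siRNA, direct contrast -2.22), TFAM (0.09, -2.29) and ANP32E (0.28, -2.10) also differed. INSIG1, which fell after E2F3 siRNA, was at 131, 127 and 126 FPKM after E2F1 siRNA (1.41 against control), with a direct contrast of -2.01 (limma adjusted p = 1.35e-08). BMF stood at -0.90 after E2F1 siRNA and 0.72 after E2F3 siRNA (direct contrast 1.62), and PCNA at 0.37 and -0.39 (direct contrast -0.75).

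PRMT6 was at 8.87, 9.53 and 9.63 FPKM after E2F1 siRNA and differed by 1.30 (limma adjusted p = 4.09e-07). SMAD5 (-1.27), TPM2 (1.03) and CDC45 (-1.28) differed as well. TPM4 was at 324, 324 and 336 FPKM after E2F1 siRNA (1.89 against control), and the direct contrast was 0.14 (limma adjusted p = 0.0121). GANAB was at 187, 196 and 192 FPKM after E2F1 siRNA, and the direct contrast of -0.05 was not called (limma adjusted p = 0.361). ZNF664 (-0.01), HABP4 (0.004), ZW10 (0.10), RBL1 (-0.08) and DROSHA (-0.07) also had no call in the direct contrast. Some genes that fell had none either: CLDN4 (-1.39 after E2F3 siRNA, -1.31 after E2F1 siRNA), ITGB4 (-0.98, -1.05), DDX60 (-1.34, -1.27) and LMAN1 (-0.68, -0.70). The lack of a call does not show that the siRNAs acted alike. STAT2 (-1.13), DERL2 (-1.54) and SLC7A5 (-1.04) fell further after E2F1 siRNA and were called in the direct contrast.

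The squamous identity of the line was present in all 6 libraries: KRT5 was at 235 FPKM or more in each, TP63 at 25.6 FPKM or more and the desmosome gene DSP at 70.8 FPKM or more. Of 10 identity markers 5 fell and 2 rose; PERP, a desmosome-associated gene, rose by 0.68 and DSP by 0.24. Of 21 markers of fibroblast, endothelial, immune and neural cells, 15 were below 1 FPKM in all 6 libraries, 3 were tested, and TUBB3, a tubulin of neurons and many carcinomas, rose (22.9, 22.7 and 23.4 FPKM to 33.98, 37.2 and 33.1 FPKM, 0.57). The markers summed to 49.3 to 60.1 FPKM in controls and 61.2 to 63.9 FPKM after E2F3 siRNA. The spacing of low FPKM values gave an estimated depth of 24500000 to 34800000 fragments per library, and 13279 to 13289 genes reached 1 FPKM in controls against 13520 to 13608 after E2F3 siRNA. The part of these differences in the gene results was not tested.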

How the data were processed

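Each library came with a deposited table of 59107 entries that the authors gave as FPKM, per the file headers, of which 58381 carried an Ensembl identifier. The submitters' processing notes name Trimmomatic, TopHat, HISAT2, HTSeq, DESeq and GRCh38; for their versions and roles, the strand setting and the tool behind the FPKM: not given in the sources used here. FPKM is the only unit in these tables. Spacing of low FPKM values gave the depths, an estimate, so no count test was made.

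Genes that passed the filter (1 FPKM or more in 3 or more of 6 libraries) were fitted as log2(FPKM + 1) with limma 3.58.1 (eBayes with trend, R 4.3.3), two-sided, with Benjamini-Hochberg adjustment over 13510 genes. With 50 genes changed at each fold size in simulated data for this comparison (13510 genes), the fit recovered 42% of those changed 1.25 times, 68% of those changed 1.5 times, 90% of those changed 2 times and 100% of those changed 4 times. The changed genes were drawn from those with a mean of at least 5 FPKM and were a far smaller share of genes than the 36.8% called here. The recovered shares therefore describe the simulated data only. The contrast with E2F1 siRNA used all 9 libraries. Other scalings, pseudocounts, filters, variance models, a replicate block, left-out libraries and a correction for GC content and length were tried. Deviations of libraries with the same replicate number correlated at -0.04, -0.12 and -0.06, and those with different numbers at -0.02 to 0.07. Whether the numbers pair libraries is not stated, and with 3 libraries per group these values cannot settle it.

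The comparison and the 58 gene lists were chosen with earlier results of these data known. Genes were named by rule: E2F3; the 12 largest rises and falls with a mean of at least 5 FPKM in a group and no overlap, without clone names and pseudogenes; up to 4 called members per direction and 2 uncalled members of each list or subgroup, and every called member of lists of up to 10; the 5 smallest p-values per direction; and cell type markers. Genes outside the rule (AHNAK, ANP32E, FGF2, DLAT, RAP1B, H19, ZC3HAV1, MTPN, SEC23B and further list members such as ISG15, PCNA, CALR and HSPA5), the ZNF classes and the 7-base words were chosen after their values were seen. Several named genes overlap another gene, mostly on the opposite strand. Some genes that the rule selects are not reported here.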

Additional observations from a re-analysis of the deposited data

Results flagged for a closer look

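The tables held 726 entries without an Ensembl identifier, which entered no comparison. Of these, 618 reached 1 FPKM in at least 3 of the 6 libraries, and in 128 of the 618 (20.7%) every E2F3 siRNA library was above every control, while in 129 (20.9%) every E2F3 siRNA library was below. Over the genes with an identifier the same shares were 29.0% and 21.2%. They stand here as a signal in entries outside the comparison, and were not tested further.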

How the results depend on the processing

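E2F3 kept its fall and its call under each alternative tried, with differences from -1.17 to -1.05 across left-out libraries. The number of genes called ranged from 3860 to 4485 across left-out libraries, with 2115 to 2444 higher and 1715 to 2041 lower. An adjusted p below 0.01 left 2837 genes, 1488 higher and 1349 lower, and a difference of at least 1 left 282, 114 higher and 168 lower. Among genes with a 3′ UTR and none of the 7-base words, 1388 were lower, a setting chosen after seeing the data, like the correction for GC content and length (2688 higher, 2291 lower). That correction covers only the 11466 genes with a 3′ UTR. Without it 2431 of these genes were higher, 146 lower by at least 1 and 1876 lower by less. Median-of-ratios scaling turned the balance to 2328 higher and 2580 lower, and upper-quartile scaling gave 2999 and 2070. Without a filter on low values 2086 were higher and 1654 lower. With the replicate block 4095 genes were called, 2257 higher and 1838 lower, and whether the numbers pair the libraries is not given. The direct contrast with E2F1 siRNA called 5485 to 5783 genes without an E2F3 siRNA library and 5466 to 5543 without an E2F1 siRNA library. Of 181 named genes that were called, 180 kept an adjusted p below 0.05 under each alternative fit that gave a value, and LUZP6 lost it under 6. The stricter cut-offs, an adjusted p below 0.01 and a difference of at least 1, were not applied to the named genes. KRT15 (limma adjusted p = 0.0129) and SEC23B (limma adjusted p = 0.0119) do not pass the former, and many named genes differed by less than 1. Many were named for large differences or small p-values, which favours keeping a call.

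With 3 libraries per group, changes under 1.5-fold were often missed in simulated data in which far fewer genes changed than were called here. Genes under 2 FPKM had larger errors. FPKM give relative levels: a change in total RNA per cell would not show. No library separates E2F3 loss from other effects of this siRNA, since the labels describe 1 siRNA treatment for E2F3.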
